A study of Mus musculus with 28 samples.

Results

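The epidermal growth factor receptor (EGFR) and the hepatocyte growth factor receptor (MET), with the growth factors that bind them, were followed in liver RNA of 28 male mice from 3 phenobarbital feeding experiments. The 10 genes were Egfr, Erbb3, Met, Egf, Tgfa, Areg, Ereg, Btc, Hbegf and Hgf. They were found by the RefSeq accession of each array probe, which gave 12 probes of the 55681 on the array, and 10 genes of the 37208 genes and transcripts that the probes stand for. CD-1 mice, an outbred stock with mouse receptors, ate a diet with phenobarbital at 1500 ppm or at 0 ppm for 7 days (n = 4 per group). Mice called hCAR/hPXR, which carry the human nuclear receptors CAR and PXR in place of the mouse ones, ate 1000 ppm or 0 ppm, also for 7 days, with 7 animals in each group. The third experiment used C3H/HeNCrlCrlj mice, here C3H, which ate 500 ppm or 0 ppm for 27 weeks (n = 3 per group). Every C3H animal, controls included, had first received 90 mg/kg of the liver carcinogen diethylnitrosamine in 1 injection, and the labels do not say whether tumour or surrounding liver was taken. Each animal gave 1 array.

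EGFR and MET are receptor tyrosine kinases on the surface of hepatocytes. Egf, Tgfa, Areg, Ereg, Btc and Hbegf encode ligands of EGFR, and Hgf encodes the ligand of MET. ERBB3, a relative of EGFR with little kinase activity of its own, binds neuregulins and signals in pairs with other ErbB receptors. Both receptors drive hepatocyte growth through the ERK cascade. Phenobarbital is known to bind EGFR and block it, after which CAR loses a phosphate group, enters the nucleus and switches on genes such as Cyp2b10. The comparison asks how the transcripts of the receptors and ligands stood beside that treatment. Arrays measure RNA, so binding and phosphorylation were not measured.

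The promoters of both receptors and of Tgfa, the ligand called in C3H mice, are shown to place them in the genome. Each window runs from 250 bases before to 50 bases after the start used in the RefSeq promoter table of build GRCm38.p6, and all 3 lie on the plus strand. For Met and Tgfa that start lies downstream of the first base of the annotated gene. Egfr is at chr11:16751953-16752252, Met at chr6:17463707-17464006 and Tgfa at chr6:86194972-86195271. Capitals mark matches, on either strand, to GGGCGG (a GC box) and TGACTCA (an AP-1 site).
Egfr: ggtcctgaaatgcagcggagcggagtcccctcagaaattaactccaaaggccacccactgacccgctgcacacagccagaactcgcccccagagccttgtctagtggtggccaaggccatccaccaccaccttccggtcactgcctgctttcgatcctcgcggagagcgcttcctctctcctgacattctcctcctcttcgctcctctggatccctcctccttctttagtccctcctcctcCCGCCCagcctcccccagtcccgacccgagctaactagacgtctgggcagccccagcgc
Met: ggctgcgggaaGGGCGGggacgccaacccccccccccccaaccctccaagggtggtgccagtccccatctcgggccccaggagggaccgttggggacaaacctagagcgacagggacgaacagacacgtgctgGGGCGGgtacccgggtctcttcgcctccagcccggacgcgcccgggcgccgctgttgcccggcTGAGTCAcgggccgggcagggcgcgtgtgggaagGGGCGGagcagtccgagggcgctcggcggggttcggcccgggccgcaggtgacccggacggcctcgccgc
Tgfa: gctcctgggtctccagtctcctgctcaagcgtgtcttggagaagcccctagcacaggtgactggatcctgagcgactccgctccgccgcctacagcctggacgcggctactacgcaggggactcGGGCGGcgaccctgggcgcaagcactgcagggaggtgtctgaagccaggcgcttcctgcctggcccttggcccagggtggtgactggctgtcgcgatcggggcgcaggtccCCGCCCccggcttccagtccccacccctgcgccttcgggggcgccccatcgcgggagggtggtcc
The Egfr window held 1 GC box, the Met window 3 and the Tgfa window 2, and 35.7% of the 32851 mouse promoter windows hold 1 or more. Met also held 1 AP-1 match, as do 5.20% of all windows. TATAAA, the TATA box, and the nuclear receptor half-sites AGGTCA and AGTTCA were searched on both strands and gave no match in the 3 windows; they occur in 13.6%, 16.3% and 14.0% of all windows. These matches describe letters and not binding.

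Levels are given as log2 of the processed spot signal minus the 75th percentile of the same array, so that 0 is that percentile, and differences are phenobarbital minus control on that log2 scale with the standard error of the fit. A probe was counted as detected where the scanner software marked it well above background. Between 46.2% and 70.7% of probes were detected on a CD-1 array, between 46.7% and 58.6% on an hCAR/hPXR array and between 41.3% and 46.0% on a C3H array. Signals were dimmer on CD-1 arrays, where the 99th percentile lay at 4019 to 6490, against 30159 to 48010 on hCAR/hPXR arrays and 22576 to 31394 on C3H arrays. In CD-1 mice the phenobarbital animals and the controls lay on different slides, so slide and treatment cannot be told apart. Phenobarbital animal 1 of hCAR/hPXR mice shared a slide with the 7 controls, and the other 6 phenobarbital animals lay on another slide. All C3H arrays lay on 1 slide, on which phenobarbital animal 1 shared the row of the 3 controls and phenobarbital animals 2 and 3 lay in the other row. A fit with slide (hCAR/hPXR) or slide row (C3H) as a block therefore rests on phenobarbital animal 1 of that strain. Cyp2b10, the standard CAR target, rose in each strain, by 6.66 ± 0.47 in CD-1, 4.49 ± 0.20 in hCAR/hPXR and 5.74 ± 0.25 in C3H mice (limma adjusted p = 1.69e-05, 2.46e-09 and 0.000335).

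Egfr, Erbb3, Met, Tgfa and Hgf were detected on all 28 arrays. Hbegf was detected on 25, Egf on 17, Btc on 12, Areg on 5 and Ereg on 3 arrays. Within a strain a gene was tested where every array of 1 or both groups detected it, which left 5 of the 10 genes in CD-1, 6 in hCAR/hPXR and 7 in C3H mice. Areg, Ereg and Btc were tested in none of the 3.

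Egfr RNA was lower after phenobarbital in C3H mice, by 5.45-fold. The 3 phenobarbital animals of this strain had log2 levels of 5.25, 3.46 and 3.11, against 6.56, 5.998 and 6.59 in the 3 controls. Every phenobarbital animal lay below every control, and animals 2 and 3 lay far below animal 1. The means were 3.94 ± 1.15 after phenobarbital and 6.38 ± 0.34 in controls (SD, n = 3 each), a difference of -2.45 ± 0.55 (limma adjusted p = 0.0357). The call was lost on leaving out any animal other than phenobarbital animal 1, with differences of -2.64 to -2.03, and with no filter on dim probes (adjusted p = 0.100). Without phenobarbital animal 1 the difference was -3.10 (adjusted p = 0.00121). With the row on the slide as a block, where phenobarbital animal 1 is set against the 3 controls of its row, it was -1.13 ± 0.29 (adjusted p = 0.118).

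In CD-1 mice Egfr had log2 levels of 2.61, 2.52, 3.38 and 2.94 after phenobarbital, against 4.17, 3.40, 3.83 and 3.85 in controls. The groups did not overlap, although phenobarbital animal 3 and control animal 2 differed by little. The difference of -0.95 ± 0.29 did not pass the test (limma adjusted p = 0.0623, 95% interval -1.58 to -0.32). It passed with normexp background correction, at -0.58 (adjusted p = 0.0199), with only genes detected on all 8 arrays (adjusted p = 0.0385) and without phenobarbital animal 3, at -1.12 (adjusted p = 0.0444).

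Egfr in hCAR/hPXR mice ran from 4.83 to 6.27 after phenobarbital, with a median of 5.78, against 5.48 to 6.29 in controls, with a median of 5.90. The groups overlapped almost throughout, with phenobarbital animal 1 alone below all controls. The difference was -0.12 ± 0.20 (limma adjusted p = 0.622, 95% interval -0.54 to 0.30), and it was 0.03 without animal 1. Within the slide that held the controls, animal 1 at 4.83 differed from the mean of the 7 controls by -1.02 (exact two-sided permutation test, p = 0.125, the smallest that 1 animal against 7 allows). With slide as a block the whole comparison gave -1.02 ± 0.30 (adjusted p = 0.107). That fit rests on this single animal and assumes that it varies like the others.

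**Figure D1:**
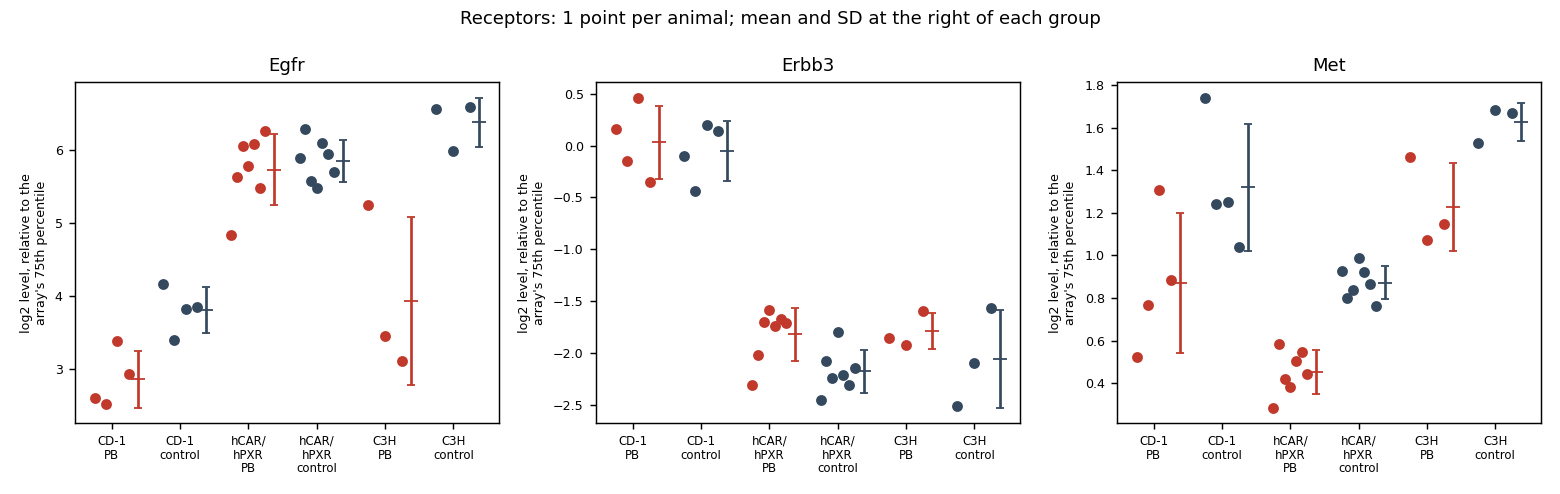
Log2 level of Egfr, Erbb3 and Met relative to the array's 75th percentile (vertical axis), 1 point per animal, for phenobarbital (PB, red) and control (dark) animals of each strain, with mean and SD beside the points. C3H phenobarbital animals lie at 3.11 to 5.25 for Egfr, below controls at 5.998 to 6.59, and hCAR/hPXR phenobarbital animals lie at 0.29 to 0.58 for Met, below controls at 0.76 to 0.99.

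Egfr was read by 3 probes, and they differed in the size of the change. The values above come from the probe for NM_207655, which is printed 10 times on the array, and the other probes, A_55_P1956863 and A_55_P1956862, are both assigned to NM_007912 and printed once. In C3H mice these 2 probes gave -1.68 ± 0.42 and -1.49 ± 0.40, so 2 of 3 Egfr probes passed when every probe was tested on its own (limma adjusted p = 0.0451 for A_55_P1956863 and 0.0535 for A_55_P1956862), where 14.1% of all tested probes did. On all 3 probes the C3H groups did not overlap, and the phenobarbital animals kept the order of animal 1 above animals 2 and 3. In CD-1 mice the NM_007912 probes gave -0.65 ± 0.26 and -0.33 ± 0.29 (adjusted p = 0.131 and 0.470), so 0 of 3 probes passed, against 7.84% of all probes, with 2 of 3 below an unadjusted 0.05. The same probes gave, in hCAR/hPXR mice, -0.27 ± 0.14 and -0.45 ± 0.13 (adjusted p = 0.108 and 0.00944), so 1 of 3 passed, where 56.0% of all probes did. On A_55_P1956862 the hCAR/hPXR phenobarbital animals spread from 3.26 to 4.34, against 4.33 to 4.49 in controls. Repeated spots of the NM_207655 probe had a median SD within an array of 0.05 in hCAR/hPXR, 0.07 in C3H and 0.18 in CD-1. In CD-1 mice the SD was 0.30, 0.33, 0.12 and 0.32 in phenobarbital animals, against 0.11 to 0.22 in controls. Over all repeated spots the median coefficient of variation there was 21.1% to 25.3% on phenobarbital arrays, against 13.2% to 14.3% on control arrays.

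**Figure D2:**
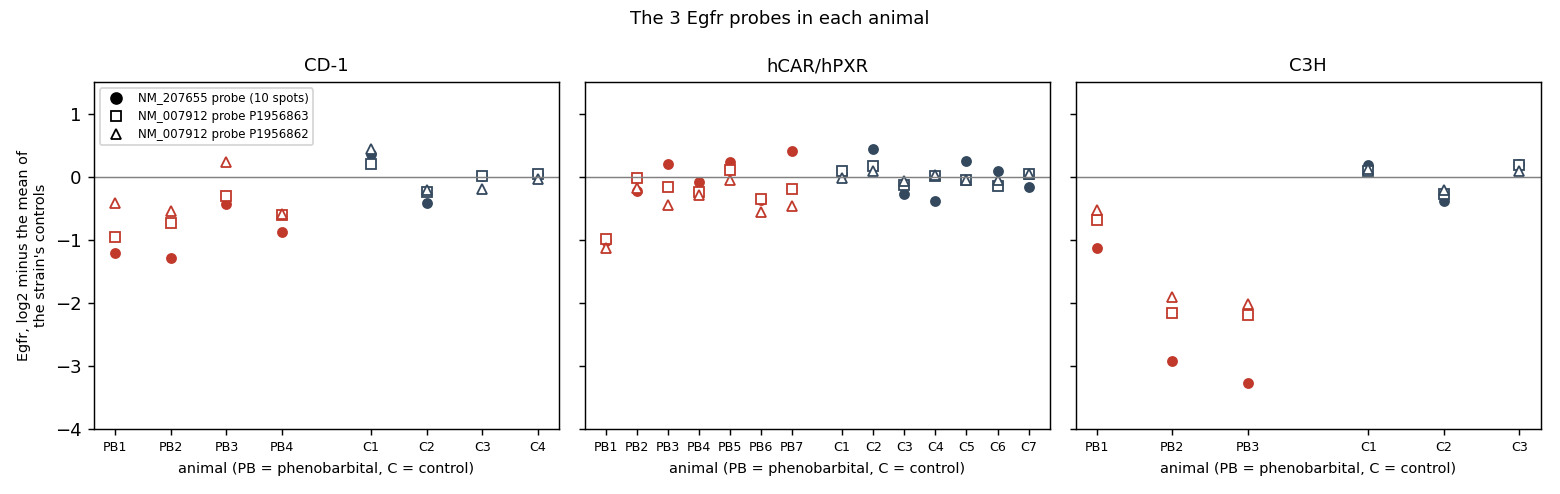
Log2 level of the 3 Egfr probes in each animal, as the distance from the mean of the strain's controls (vertical axis), with phenobarbital animals (PB, red) left of controls (C, dark). In C3H mice animals PB2 and PB3 lie lowest on every probe, and in hCAR/hPXR mice animal PB1 lies lowest on every probe.

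The fall of Egfr in C3H mice differed from that in hCAR/hPXR mice, by -2.33 ± 0.47 (interaction in 1 limma fit of all 28 arrays, adjusted p = 0.00190), and it passed on leaving out each of the 20 animals. That fit gave the 6 groups 1 shared estimate of spread. The SD of Egfr was 1.15 in C3H phenobarbital animals and 0.29 to 0.48 in the other groups. The standard error of 0.47 lay below the 0.55 of the C3H change fitted alone, which lost its call on leaving out most single animals. The shared fit also held no term for slide or slide row within a strain. With those blocks Egfr changed by -1.13 in C3H and -1.02 in hCAR/hPXR mice, each value resting on phenobarbital animal 1. Against CD-1 mice the difference of the changes was -1.50 ± 0.52 and did not pass (adjusted p = 0.0524). It passed with normexp (-1.65, adjusted p = 0.00966), quantile normalization (-1.53, adjusted p = 0.0294) and array weights (-1.76, adjusted p = 0.0123), and on leaving out 3 of 14 animals. Strain, dose, duration, diethylnitrosamine and slide all change together between the experiments and cannot be told apart. The 28 values of Egfr, with the mean of each strain subtracted, ran most closely with those of Enho, C8a and Igf1 among 7962 genes detected on all arrays, with Pearson's r of 0.93, 0.92 and 0.92. C8a encodes a complement protein made by hepatocytes, Igf1 a hepatic growth factor, and Enho a secreted peptide. These values share arrays, slides and the phenobarbital contrast, and with the mean of each of the 6 groups subtracted r was 0.81, 0.79 and 0.78.

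Because whole liver was measured, fewer cells of a type and less RNA per cell cannot be told apart. In C3H mice 4 of 7 tested hepatocyte markers fell, namely Alb, Apoa1, Ttr and Fgb, by 0.56 to 0.99, where 14.7% of all tested genes and transcripts passed. The summed linear level of the 7 hepatocyte markers was 3899 to 4730 in phenobarbital animals, against 6382 to 7017 in controls, and all 7 were detected in every animal. The sums of the lists for endothelial cells (126 to 151 after phenobarbital, 177 to 184 in controls), for Kupffer cells and macrophages (73.5 to 88.1 after phenobarbital, 89.3 to 117 in controls) and for lymphocytes (20.1 to 41.5 after phenobarbital, 53.5 to 72.6 in controls) were lower too. Linear sums weigh the brightest markers most. Of 8 tested endothelial markers 1 rose and 1 fell, and 0 of 7 Kupffer cell and macrophage and 0 of 3 lymphocyte markers passed. The median differences of these 3 lists were -0.05, -0.39 and -0.63, against -0.05 over all tested genes and transcripts. The neutrophil sums overlapped, at 4.99 to 21.6 after phenobarbital and 4.43 to 8.90 in controls, as did those of bile duct cells, at 2.74 to 5.51 after phenobarbital and 2.65 to 3.37 in controls, where 1 of 4 tested markers rose (Krt19) and 1 fell (Sox9). In CD-1 mice 2 of 7 hepatocyte markers, Alb and Apoa1, fell by 1.97 and 1.32 (7.98% of all tested passed), and the hepatocyte sum was 640 to 1148 after phenobarbital against 1305 to 2294 in controls. Of the other CD-1 lists, 1 of 8 stellate cell, 1 of 7 bile duct and 1 of 5 lymphocyte markers fell. Among neutrophil markers 1 of 5 rose, and 0 of 7 endothelial and 0 of 6 Kupffer cell and macrophage markers passed. The hepatocyte sums of hCAR/hPXR mice overlapped, at 2873 to 3966 after phenobarbital and 2857 to 3595 in controls. In the same strain the lymphocyte sums did not overlap, at 18.7 to 28.9 after phenobarbital and 37.7 to 56.0 in controls, with 3 of 5 tested markers lower and 1 higher. Its Kupffer cell and macrophage sums overlapped, at 122 to 250 after phenobarbital and 114 to 154 in controls, with 3 of 7 markers higher, where 58.1% of all tested genes and transcripts passed. Phenobarbital animal 1, on the controls' slide, had the sum of 122, within the control range. With slide as a block, which rests on that animal, the Kupffer cell and macrophage median went from 0.31 to -0.11. The lymphocyte median went from -0.49 to -0.33. The part of these shifts in the values of Egfr and, in hCAR/hPXR mice, of Met, Erbb3 and Hbegf was not tested.

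Met, the receptor of HGF, was lower after phenobarbital in hCAR/hPXR mice. Its log2 level ran from 0.29 to 0.58 in the 7 phenobarbital animals (median 0.44), against 0.76 to 0.99 in the 7 controls (median 0.86). No phenobarbital animal reached the lowest control. The difference was -0.42 ± 0.07, or 1.34-fold lower (limma adjusted p = 0.000124). With slide as a block it was -0.59, a value that sets phenobarbital animal 1 alone against the 7 controls of its slide. Without the block, leaving out any 1 of the 14 animals gave -0.44 to -0.39, with each of those fits past the threshold. Met in C3H mice was at 1.46, 1.07 and 1.15 after phenobarbital, against 1.53, 1.68 and 1.67 in controls. These groups did not overlap either, but the difference of -0.40 ± 0.15 did not pass (adjusted p = 0.107), and it passed without phenobarbital animal 1, at -0.52 (adjusted p = 0.0324). With slide row as a block it was -0.17 ± 0.16 (adjusted p = 0.653). In CD-1 mice Met was at 0.52, 0.77, 1.31 and 0.89 after phenobarbital, against 1.74, 1.24, 1.25 and 1.04 in controls, which overlapped (-0.45 ± 0.28, adjusted p = 0.313). The 3 differences in Met lay within 0.05 of each other, and the tests of their pairwise differences gave adjusted p of 0.916 to 0.968. The 95% intervals of those differences ran from -0.42 to 0.45 for C3H against hCAR/hPXR, from -0.44 to 0.54 for C3H against CD-1 and from -0.38 to 0.43 for hCAR/hPXR against CD-1. Nr5a1, H4c8 and Caln1 had the values most like those of Met over the 28 arrays after subtracting strain means, with r of 0.89, 0.88 and 0.88.

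Erbb3, the neuregulin receptor, was higher after phenobarbital in hCAR/hPXR mice, by 1.28-fold. It ran from -2.31 to -1.59 after phenobarbital (median -1.71), against -2.46 to -1.80 in controls (median -2.22), with overlap. The difference of 0.36 ± 0.12 passed (limma adjusted p = 0.0206), but it turned to -0.13 ± 0.20 with slide as a block (adjusted p = 0.805). With normexp it was 0.11 and the call was lost (adjusted p = 0.250). Phenobarbital animal 1, on the controls' slide, lay at -2.31, within the range of the controls. Erbb3 gave 0.27 ± 0.25 in C3H mice (adjusted p = 0.481) and 0.08 ± 0.28 in CD-1 mice (adjusted p = 0.873), with overlapping groups in both. The genes most like Erbb3 were Eri2, Tmem238 and Gatd1, with r of 0.72, 0.71 and 0.71.

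Tgfa, the EGFR ligand transforming growth factor alpha, rose in C3H mice. Its log2 level was -1.96, -1.58 and -1.35 after phenobarbital, against -2.65, -2.36 and -2.54 in controls. All 3 phenobarbital animals lay above all 3 controls, with animal 1 the lowest of them. The difference was 0.89 ± 0.19, or 1.85-fold higher (limma adjusted p = 0.0307). The call was lost with normexp background correction (0.13, adjusted p = 0.317), with no filter on dim probes (adjusted p = 0.107), with slide row as a block (0.56 ± 0.19, adjusted p = 0.202) and on leaving out any animal other than phenobarbital animal 1 (0.75 to 0.96). Tgfa in hCAR/hPXR mice ran from -2.72 to -2.31 after phenobarbital (median -2.54), against -3.05 to -2.58 in controls (median -2.66), a difference of 0.19 ± 0.09 (adjusted p = 0.0739). It passed with quantile normalization (0.34, adjusted p = 0.00333) and without phenobarbital animal 4. In CD-1 mice it was -1.44, -1.34, -1.37 and -1.13 after phenobarbital, against -1.24, -1.28, -1.13 and -1.29 in controls, and the difference was -0.09 ± 0.24 (adjusted p = 0.838). The change in C3H mice exceeded that in CD-1 mice by 0.97 ± 0.22 (interaction, adjusted p = 0.00407) and that in hCAR/hPXR mice by 0.69 ± 0.19 (adjusted p = 0.0239). The first of these passed on leaving out each of the 14 animals and not with normexp (0.28, adjusted p = 0.155). The second passed on leaving out 16 of 20 animals and not with normexp, quantile normalization or no filter. Neither fit held a slide or row term. With those blocks Tgfa changed by 0.56 in C3H and 0.24 in hCAR/hPXR mice, each value resting on phenobarbital animal 1. The Tgfa probe is printed 10 times, and the median SD of those spots within an array was 0.41 in CD-1, 0.19 in hCAR/hPXR and 0.18 in C3H mice.

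Hbegf, the EGFR ligand that is shed from a membrane-bound form, was higher after phenobarbital in hCAR/hPXR mice. It ran from -2.49 to -1.48 after phenobarbital (median -1.82), against -3.40 to -2.29 in controls (median -2.49), with 1 control array not detected. The groups overlapped through phenobarbital animal 1, and the other 6 phenobarbital animals lay above all controls. The difference was 0.71 ± 0.18 (limma adjusted p = 0.00428), and with slide as a block it was 0.13 ± 0.33 (adjusted p = 0.886). With normexp it was 0.26 and still passed (adjusted p = 0.0147), and requiring detection on every array of both groups left Hbegf untested. Hbegf in C3H mice was at -1.92, -1.28 and -1.85 after phenobarbital, against -2.67, -1.49 and -2.31 in controls (0.47 ± 0.33, adjusted p = 0.350). In CD-1 mice 3 of 4 arrays of each group detected it, and it was not tested.

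Egf, the founding ligand of the family, was low in every group. In C3H mice all 6 arrays detected it, at -2.61, -2.21 and -1.88 after phenobarbital against -2.87, -2.97 and -2.39 in controls, which overlapped (0.51 ± 0.24, limma adjusted p = 0.181). Among hCAR/hPXR mice it was detected in 6 of 7 phenobarbital animals and 4 of 7 controls, and in CD-1 mice in 1 of 4 phenobarbital animals and 0 of 4 controls.

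Amphiregulin (Areg), epiregulin (Ereg) and betacellulin (Btc), the 3 other EGFR ligands, lay mostly at background. Areg was detected in 3 of 4 phenobarbital animals and 2 of 4 controls of CD-1 mice and on no array of the other strains. In C3H mice its signal was -4.56, -3.79 and -3.79 after phenobarbital against -5.56, -5.30 and -5.05 in controls, without overlap, but not well above background on any of the 6 arrays. Ereg was detected in 3 of 4 phenobarbital animals and 0 of 4 controls of CD-1 mice, at -1.22, -1.73, -2.15 and -2.85 after phenobarbital against -3.54, -2.27, -3.06 and -2.58 in controls. These values overlapped, and Ereg was not detected elsewhere. The phenobarbital mean was 1.43-fold above the control mean, with control signals below their array's lowest detected level raised to that level. Phenobarbital animal 3, where Ereg was not detected, is part of that mean. Btc was detected in 5 of 7 phenobarbital animals and 3 of 7 controls of hCAR/hPXR mice, 2 of 3 and 1 of 3 in C3H mice, and 1 of 4 and 0 of 4 in CD-1 mice.

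Hgf, the MET ligand, did not pass the test in any strain at the settings used throughout, although other settings gave calls. Its C3H levels were -1.36, -2.08 and -2.39 after phenobarbital, against -1.57, -1.07 and -1.11 in controls. Phenobarbital animals 2 and 3 lay below all controls and animal 1 among them. The difference was -0.69 ± 0.29 (limma adjusted p = 0.141), and it passed without phenobarbital animal 1, at -0.98 (adjusted p = 0.0204). With slide row as a block it was -0.11 ± 0.26 (adjusted p = 0.876). Hgf in hCAR/hPXR mice ran from -1.62 to -0.99 after phenobarbital (median -1.37), against -1.72 to -1.44 in controls (median -1.56), a difference of 0.23 ± 0.11 (adjusted p = 0.0853). It passed with quantile normalization (0.30, adjusted p = 0.0179) and without phenobarbital animal 4 or 7. In CD-1 mice the difference was 0.00 ± 0.27 (adjusted p = 0.996). The changes in C3H and hCAR/hPXR mice differed by -0.93 ± 0.28 (interaction, adjusted p = 0.0326), which passed on leaving out 16 of 20 animals and not with normexp, quantile normalization or no filter. That fit held no slide or row term. With those blocks Hgf changed by -0.11 in C3H and 0.03 in hCAR/hPXR mice, each value resting on phenobarbital animal 1. HGF is made in liver mainly by stellate and other non-parenchymal cells. The summed level of 10 markers of stellate cells and fibroblasts in C3H mice was 38.4 to 87.1 after phenobarbital against 88.9 to 109 in controls, with 0 of 8 tested markers past the threshold, and its part in the Hgf values was not tested. Hgf ran most closely with Ctnnbip1, Aig1 and Hsbp1l1 over the 28 arrays, with r of 0.83, 0.78 and 0.77.

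**Figure D3:**
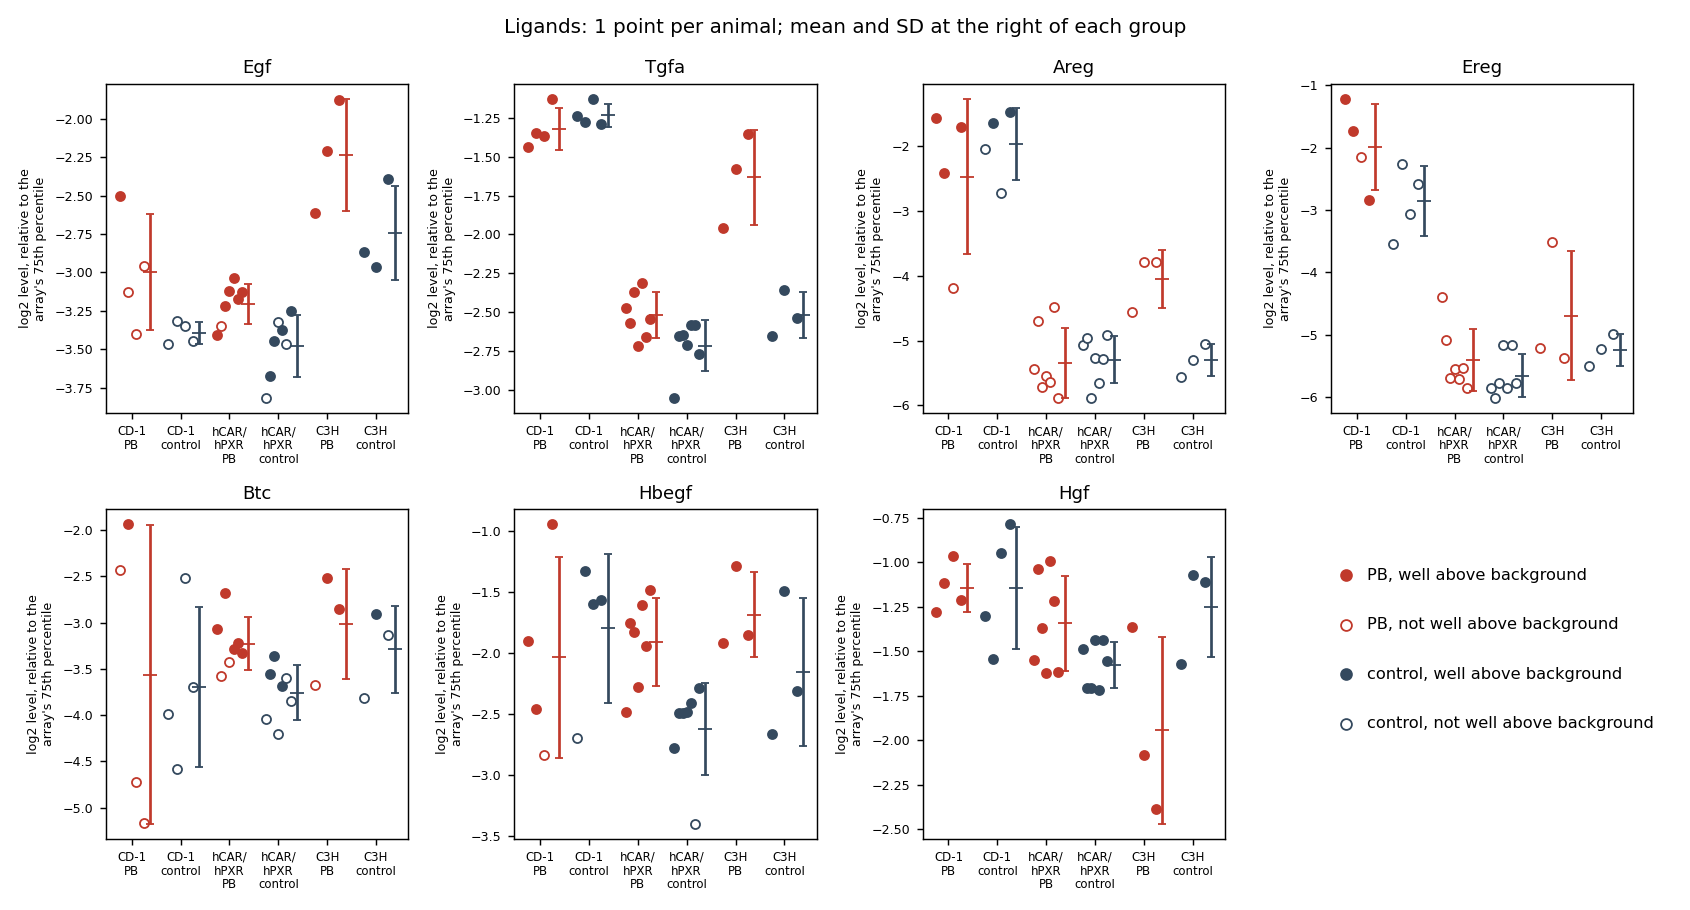
Log2 level of the 7 ligand genes relative to the array's 75th percentile (vertical axis), 1 point per animal, with phenobarbital (PB, red) left of control (dark) in each strain, mean and SD beside the points, and open points where the probe was not well above background. Tgfa in C3H mice separates, at -1.96 to -1.35 after phenobarbital against -2.65 to -2.36 in controls, and Areg and Ereg are open points in every hCAR/hPXR and C3H animal.

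Counted over the genes tested, 2 of 7 passed in C3H mice (Egfr lower, Tgfa higher), where 14.7% of all 18273 tested genes and transcripts did, and 0 of 7 passed with slide row as a block, where 3.32% did and 2 were below an unadjusted 0.05. Of 6 genes tested in hCAR/hPXR mice 3 passed (Erbb3 and Hbegf higher, Met lower), where 58.1% of all 20039 did, and only Met passed with slide as a block, where 2.20% did. The slide and row block fits rest on phenobarbital animal 1 of their strain. In CD-1 mice limma called 0 of 5, with 1, Egfr, at an unadjusted p under 0.05, where 7.98% of all 23833 were called. Groups did not overlap for 3 of 7 genes in C3H mice, against 41.6% of all tested, for 1 of 6 in hCAR/hPXR mice, against 20.5%, and for 1 of 5 in CD-1 mice, against 18.6%. The median difference of the tested genes was 0.27 in C3H, 0.21 in hCAR/hPXR and -0.09 in CD-1 mice, and over all tested genes and transcripts it was -0.05, 0.13 and -0.04. Between strains the change differed for 3 of 7 genes in C3H against hCAR/hPXR mice (9.55% of all tested), for 1 of 7, Tgfa, in C3H against CD-1 mice (15.0%) and for 0 of 6 in hCAR/hPXR against CD-1 mice (28.6%), where Hbegf had an unadjusted p under 0.05.

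**Figure D4:**
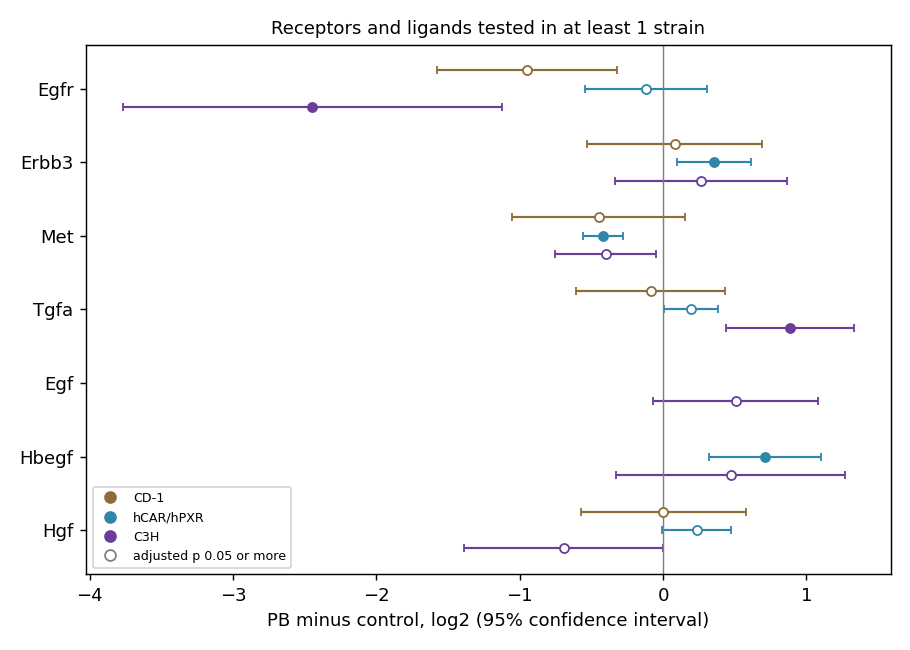
Phenobarbital minus control on the log2 scale (horizontal axis) with 95% confidence intervals for the 7 genes tested in at least 1 strain, by strain, with filled points where the limma adjusted p was under 0.05. The Egfr point lies lowest in C3H mice, at -2.45, and the 3 Met points lie between -0.45 and -0.40.

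Control levels were set side by side, each gene against itself. Egfr was higher in controls of C3H mice (6.38 ± 0.34) and of hCAR/hPXR mice (5.86 ± 0.29) than in controls of CD-1 mice (3.81 ± 0.32), by 2.57 ± 0.37 and 2.04 ± 0.30 (limma adjusted p = 3.04e-07 and 5.18e-07). Quantile normalization made these differences 0.51 and 0.54, and neither passed (adjusted p = 0.176 and 0.0827), and C3H against hCAR/hPXR controls gave 0.53 ± 0.33 (adjusted p = 0.188). From high to low, the Egfr group means were C3H control, hCAR/hPXR control, hCAR/hPXR phenobarbital (5.74 ± 0.48), C3H phenobarbital, CD-1 control and CD-1 phenobarbital (2.86 ± 0.39). Each neighbouring pair in that order overlapped except the last. Erbb3 went the other way, at -2.06 ± 0.47 in C3H and -2.18 ± 0.21 in hCAR/hPXR controls against -0.05 ± 0.29 in CD-1 controls. Met was at 1.63 ± 0.09 in C3H controls, 0.87 ± 0.08 in hCAR/hPXR controls and 1.32 ± 0.30 in CD-1 controls, and under quantile normalization C3H lay below CD-1, by -0.88. Tgfa (-2.52 ± 0.15 in C3H, -2.71 ± 0.16 in hCAR/hPXR and -1.23 ± 0.07 in CD-1 controls) and Hgf (-1.25 ± 0.28, -1.58 ± 0.13 and -1.15 ± 0.34 in the same order) changed the sign of their differences from CD-1 under quantile normalization. In all, 2 of 7 members differed between C3H and hCAR/hPXR controls (48.4% of all tested), 4 of 7 between C3H and CD-1 controls (89.0%) and 5 of 5 between hCAR/hPXR and CD-1 controls (88.2%). The 2 were Egf and Met, and the 4 were Egf, Egfr, Erbb3 and Tgfa. Egf was detected in 3 of 3 C3H, 4 of 7 hCAR/hPXR and 0 of 4 CD-1 controls. It entered both tests only through the C3H controls, where it was higher, so its calls follow in part from the filter. The median over all tested genes of the differences between controls, in the same order, was 0.18, 0.72 and 0.57, and under quantile normalization 0.04, 0.36 and 0.37.

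Of the remaining ErbB receptors and ligands, neuregulin 1 (Nrg1), a ligand of ERBB3 and ERBB4, rose in C3H and hCAR/hPXR mice. In C3H mice it was at 1.99, 3.03 and 3.42 after phenobarbital, against -0.76, -0.53 and 0.14 in controls, 9.16-fold higher (3.19 ± 0.41, limma adjusted p = 0.00763). Nrg1 in hCAR/hPXR mice ran from -0.62 to 0.54 after phenobarbital (median -0.43), against -2.39 to -1.84 in controls (median -2.11), 3.66-fold higher (1.87 ± 0.16, adjusted p = 2.04e-06). Neither pair of groups overlapped. With slide as a block in hCAR/hPXR mice Nrg1 gave 1.52, and with slide row as a block in C3H mice 2.37. Each of these values sets phenobarbital animal 1 alone against the controls of its slide or row. In CD-1 mice Nrg1 gave 1.26 ± 0.44 (limma adjusted p = 0.0935). Nrg4, a neuregulin that binds ERBB4, rose in CD-1 mice (1.17 ± 0.29, adjusted p = 0.0297) and gave 0.61 ± 0.32 in hCAR/hPXR mice (adjusted p = 0.113). In C3H mice it ran from -2.65 to 2.66 over the 3 phenobarbital animals, against 0.02 to 0.71 in controls. Erbb2, the ErbB receptor without a ligand of its own, fell in hCAR/hPXR mice (-0.84 ± 0.15, adjusted p = 0.000295), which slide as a block reduced to -0.35 ± 0.26 (adjusted p = 0.573). It gave -0.80 ± 0.27 in CD-1 mice (adjusted p = 0.0830) and -0.17 ± 0.13 in C3H mice (adjusted p = 0.365). Epgn and Nrg2 were tested in CD-1 mice, where they gave -0.18 ± 0.33 and 0.11 ± 0.25 (adjusted p = 0.745 and 0.802), and Erbb4 and Nrg3 were tested in no strain.

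Among 12 genes that release EGFR ligands from the membrane or activate and restrain HGF, 3 of 11 tested rose and 0 fell in C3H mice, where 14.7% of all tested genes and transcripts passed. Plat, tissue plasminogen activator, was at least 39.9-fold higher, a bound, since no control array detected it. Plat entered the test only through its detection in phenobarbital animals, so its place among the 3 follows in part from the filter. Rhbdf1 and Rhbdf2, the inactive rhomboids that carry the ligand-shedding enzyme ADAM17 to the cell surface, rose by 1.73 ± 0.23 and 1.52 ± 0.28 (limma adjusted p = 0.00861 and 0.0231). With slide row as a block Plat was at 5.36, and Rhbdf1 and Rhbdf2, at 1.58 and 1.07, no longer passed. In hCAR/hPXR mice 6 of 9 rose and 1 fell, where 58.1% of all passed. With slide as a block (2.20% of all) 1 rose, Rhbdf1 (0.76 ± 0.16, adjusted p = 0.0230), and 1 fell, Spint2, an inhibitor of the enzymes that activate HGF (-1.02 ± 0.19, adjusted p = 0.0140). Both block fits rest on phenobarbital animal 1 of their strain. In CD-1 mice limma called 0 of 11, where 7.98% of all passed. Among the 11, 6 had an unadjusted p under 0.05, 2 of them higher and 4 lower. Counts at an unadjusted p, above, here and below, stand without a share over all tested genes. They therefore cannot say whether a list stands out. The medians over the tested members were 0.10 in C3H, 0.30 in hCAR/hPXR and -0.31 in CD-1 mice.

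Of the 16 adaptors and kinases of the ERK cascade, 1 of 16 rose in C3H mice, Mapk3, which encodes ERK1 (0.68 ± 0.15, limma adjusted p = 0.0317, against 14.7% of all tested), and slide row as a block left it at 0.44 ± 0.16 (adjusted p = 0.208). In hCAR/hPXR mice 8 of 16 rose, led by Map2k1, Araf, Mapk3 and Map2k2 (0.41 to 0.58), a share below the 58.1% of all tested genes and transcripts that passed. With slide as a block 0 of 16 passed in limma, where 1 had an unadjusted p under 0.05 and 2.20% of all passed. In CD-1 mice limma called 0 of 12, where 7.98% of all passed, with 1 higher and 4 lower at an unadjusted p under 0.05. The list medians were -0.04 in C3H, 0.26 in hCAR/hPXR and -0.42 in CD-1 mice. Among the feedback inhibitors of receptor signalling, limma called 0 of 7 in C3H (14.7% of all) and 0 of 5 in CD-1 mice (7.98%). An unadjusted p under 0.05 was found for 3 in C3H mice, all higher, and for 0 in CD-1 mice. Dusp6, an ERK phosphatase, rose in hCAR/hPXR mice (0.89 ± 0.13, adjusted p = 9.27e-05) and Spry4 fell (-1.27 ± 0.25, adjusted p = 0.000746), 2 of 9 tested against 58.1% of all, and 0 of 9 passed with slide as a block, where 0 had an unadjusted p under 0.05.

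Genes that ERK signalling induces rose in C3H mice, 6 of 8 tested, with a median difference of 2.48, where 14.7% of all tested genes and transcripts passed. Fos, an immediate-early transcription factor, was at least 37.0-fold higher, a bound against controls in which no array detected it. Fos entered the test only through its detection in phenobarbital animals, so its place among the 6 follows in part from the filter. Myc, a growth-promoting transcription factor, was at 1.45, 1.46 and 1.60 after phenobarbital, against -1.73, -1.18 and -1.09 in controls, a rise of 2.84 ± 0.19 (adjusted p = 0.00132). Ccnd1, cyclin D1, rose by 2.39 ± 0.28 and Phlda1 by 2.41 ± 0.47 (adjusted p = 0.00629 and 0.0252), and Egr1 and Ier3 passed as well. Etv4 and Etv5, 2 ETS factors of the same list, gave -0.49 ± 0.17 and -0.28 ± 0.20 (adjusted p = 0.0927 and 0.353). With slide row as a block Fos was at 5.70, Myc at 2.78 and Ccnd1 at 1.95, and Egr1, Phlda1 and Ier3 no longer passed. These values rest on phenobarbital animal 1, and the Fos value again has controls that did not detect it. Leaving out 1 animal gave 3 to 6 that rose. In hCAR/hPXR mice 3 of 7 rose (Ccnd1 0.56 ± 0.09, Myc 0.99 ± 0.19, Etv5 0.44 ± 0.14) and Etv4 fell (-0.45 ± 0.11), 4 of 7 where 58.1% of all passed, and 0 of 7 passed with slide as a block, with 2 at an unadjusted p under 0.05. Fos spread widely there, from -3.36 to 1.29 after phenobarbital and from -3.85 to 1.56 in controls. In CD-1 mice limma called 0 of 4, where 7.98% of all passed, with 2 lower at an unadjusted p under 0.05. The median difference of this list was -0.45 in hCAR/hPXR mice, or -0.39 with slide as a block, and -0.41 in CD-1 mice. Over all tested genes and transcripts the medians were 0.13 in hCAR/hPXR and -0.04 in CD-1 mice.

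**Figure D5:**
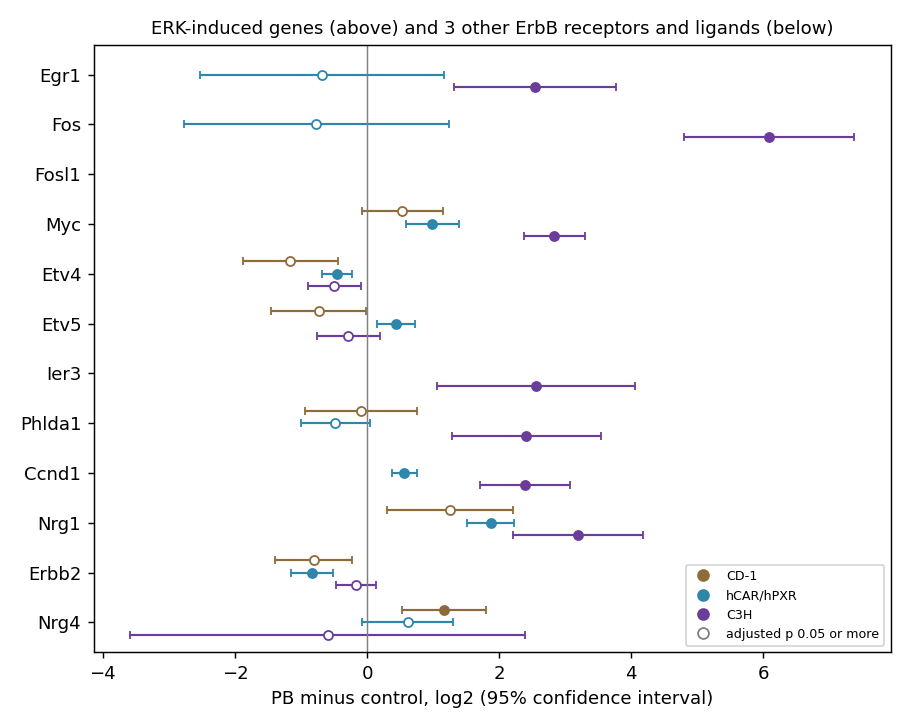
Phenobarbital minus control on the log2 scale (horizontal axis) with 95% confidence intervals for the 9 ERK-induced genes and for Nrg1, Erbb2 and Nrg4, by strain, drawn where the gene was tested and filled where the limma adjusted p was under 0.05. In C3H mice 6 ERK-induced genes lie between 2.39 and 6.09, and Nrg1 lies right of 0 in each strain.

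Of the 11 genes that hold CAR in the cytoplasm, release it or respond to it, the targets Cyp2b10, Cyp2c55 and Gadd45b rose in every strain and were the only ones past the threshold in C3H and CD-1 mice, 3 of 11 tested in each, where 14.7% and 7.98% of all tested genes and transcripts passed. With slide row as a block 2 of 11 passed in C3H mice, where 3.32% of all did. Of the 10 tested in hCAR/hPXR mice 9 rose and 1 fell, where 58.1% of all passed. The one that fell was Nr1i3, the mouse CAR gene (-0.99 ± 0.12), and with slide as a block it was at -0.65. These mice carry human CAR in place of the mouse one, and what the mouse probe read in them was not tested. Cyp2c55 and Gadd45b rose there by 3.30 ± 0.19 and 3.05 ± 0.15. With slide as a block 3 of 10 passed, where 2.20% of all did.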

How the data were processed

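Liver RNA of 28 male mice in 6 groups was measured on 1-colour Agilent arrays, 1 array per animal, with group and slide position taken from the labels and the file headers. The deposited scanner files hold the processed spot intensity after the scanner software's background correction, per the file headers. A further deposited table gives log2 values for the same arrays, which matched log2 of the processed intensity minus each array's 75th percentile with array offsets of -0.0102 to 0.0233, and it served as an alternative. Here log2 intensity minus the 75th percentile over 55681 non-control probes was computed from the scanner files. Between 109 and 430 spots per array marked as outliers were dropped, and repeated spots of a probe were averaged. Of these probes 26582 were named through RefSeq accessions (20145 symbols), and 29099 kept their own identifier. The probe with the highest mean over the 28 arrays stood for a gene, and Egfr is also given probe by probe.

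Genes well above background on every array of at least 1 compared group were tested with limma 3.58.1 (lmFit and eBayes) in R 4.3.3, with Benjamini-Hochberg adjustment across every tested gene, calling adjusted p under 0.05. Each strain was fitted alone, and differences between strains came from 1 fit of all 28 arrays, which gave the 6 groups 1 shared estimate of spread per gene. Each fit was tested on simulated data. The labels give animals as replicates and do not say that numbers pair them. Same-numbered animals deviated together with correlations of -0.45 to 0.06 in CD-1, -0.13 to 0.27 in hCAR/hPXR and 0.04 to 0.18 in C3H mice, so the reported tests had no replicate block, and it was run as an alternative. The number of arrays limits the precision. Alternatives were normexp background correction with an offset of 50 on median signals, quantile normalization, other filters, the mean of a gene's probes, slide, row and replicate blocks, array weights and leaving out animals. Slide row in C3H mice was added after seeing the data. The members and lists were chosen with earlier results of these data known. All 10 genes and the other ErbB receptors and ligands were named, and of each other list up to 4 called genes per comparison with the smallest adjusted p. Egr1, Ier3, Etv4 and Etv5 in C3H mice and Fos in hCAR/hPXR mice were added after their values were seen.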

Additional observations from a re-analysis of the deposited data

Results flagged for a closer look

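Each of the 12 probes was examined in each CD-1 and hCAR/hPXR group, which gave 48 sets of values. In 2 of the 48 sets an animal lay far from the others, where chance gives about 1 in 20. The sets share animals, and the C3H groups, with 3 animals each, were not examined. Phenobarbital animal 1 of hCAR/hPXR mice was lowest for Egfr probe A_55_P1956863, at 3.30 against 3.93 in the nearest animal of its group. It is the phenobarbital animal that shared the controls' slide, and the part of the slide in its value was not tested. Control animal 1 of hCAR/hPXR mice was lowest for Tgfa, at -3.05 against -2.77 in the nearest.

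The phenobarbital effect differed between strains for 3 genes, by the interaction in limma. For Egfr the effect in C3H minus that in hCAR/hPXR mice was -2.33. For Tgfa it was 0.97 in C3H minus CD-1 and 0.69 in C3H minus hCAR/hPXR mice. For Hgf it was -0.93 in C3H minus hCAR/hPXR mice. Strain, dose, duration, diethylnitrosamine and slide cannot be told apart in these differences. The fit also held no term for slide or slide row within a strain, and it gave the 6 groups 1 shared estimate of spread per gene.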

How the results depend on the processing

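Of single genes under alternatives other than leaving out an animal, 261 values kept direction and side of the threshold, 14 passed it newly, 18 lost it and 20 reversed, and of counts 75 stayed within 1.5 times and 25 did not. The causes were not tested. Members called in CD-1 mice (0) became 1, Egfr, with normexp and with detection required on every array of both groups, and genes called (1901) became 4280 with normexp and 1160 with the replicate block. In hCAR/hPXR mice members called (3) became 5 with quantile normalization and 1 with slide as a block, where genes called (11646) became 440. In C3H mice members called (2) became 1 with normexp, 0 with no filter, 0 with slide row as a block and 1 with the replicate block, and genes called (2682) became 612, 606 and 1543 with the last 3. The block of replicate numbers, which share only a number, is given for these counts alone.

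Reversed values within strains were Hgf in CD-1 mice (-0.059 normexp, -0.083 quantile), Erbb3 in hCAR/hPXR mice (-0.13 slide block), and Erbb3 (-0.020) and Egf (-0.010) in C3H mice with normexp. For hCAR/hPXR minus CD-1 effects, members called (0) became 1 with normexp, and Met reversed to -0.14 with normexp and -0.081 with array weights. For C3H minus CD-1, members called (1) became 2 with quantile and 2 with array weights, and Erbb3 (-0.040 normexp) and Met (-0.027 normexp, -0.20 array weights) reversed. For C3H minus hCAR/hPXR, members called (3) became 1 with normexp, quantile and no filter, genes called (1964) became 828 with quantile and 6984 with array weights, and Egf (-0.076 normexp) and Met (-0.12 array weights) reversed. For control levels, members called became 3 from 5 in hCAR/hPXR minus CD-1 with quantile and 6 from 2 in C3H minus hCAR/hPXR with normexp, where genes called (9558) became 5315 with quantile. Egf reversed to -0.069 with normexp in C3H minus CD-1. Quantile reversed Egfr to -0.027 in C3H minus hCAR/hPXR, Tgfa to 0.027 and Hgf to 0.85 in hCAR/hPXR minus CD-1, and Tgfa to 0.51, Hbegf to 1.55, Hgf to 1.30 and Met to -0.88 in C3H minus CD-1.

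Leaving out 1 animal gave 935 to 2129 genes and 0 to 1 members in CD-1, 10773 to 12200 genes and 3 to 5 members in hCAR/hPXR, and 575 to 5386 genes and 0 to 4 members in C3H mice. In C3H mice Egfr ran from -3.10 to -2.03 and Tgfa from 0.75 to 1.05. In CD-1 mice Hgf ran from -0.13 to 0.12 and Erbb3 from -0.063 to 0.21, and in hCAR/hPXR mice Egfr from -0.21 to 0.030. Effects in C3H minus CD-1 gave 2534 to 5175 genes, 1 to 3 members, Egfr -2.15 to -1.08, Egf -0.065 to 0.30, Erbb3 -0.039 to 0.43 and Met -0.093 to 0.19. Those in C3H minus hCAR/hPXR gave 1097 to 2666 genes, 1 to 3 members, Erbb3 -0.32 to 0.15, Hbegf -0.50 to 0.093, Met -0.099 to 0.095, Hgf -1.22 to -0.71 and Tgfa 0.55 to 0.85. Those in hCAR/hPXR minus CD-1 gave 6300 to 9132 genes, 0 to 1 members and Met -0.11 to 0.17. A slide block was not possible in CD-1 mice, where each slide holds 1 group. It did not apply in C3H mice, which lie on 1 slide, and slide row was the block there. Signal over background limits Areg, Ereg and Btc, which were at or near it on most arrays.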
